A study of Mus musculus with 12 samples.

Results

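Endothelial cells line every blood vessel of adipose tissue, and 8 genes that mark them were followed here: Pecam1, Cdh5, Kdr, Flt1, Tek, Tie1, Emcn and Egfl7. They were taken by gene symbol as known markers, and no measured value enters the rule, although earlier results of these data were known when the list was drawn up. All 8 were present both in the authors' table for inguinal white fat (16738 genes) and in that for brown fat (15363 genes), out of 17599 different genes in the tables together. The labels describe 12 RNA sequencing libraries of inguinal white fat (iWAT) from C57BL/6 mice, which were fed a high-fat diet (HFD) and housed at room temperature. They form 4 groups of 3 libraries, WT and KO of either sex, where KO stands for loss of NDUFS4, an accessory subunit of respiratory complex I, in adipocytes (Adipo-NDUFS4 KO). The sources used here do not give the promoter that drives the deletion, the age of the mice or the number of animals behind a library. For brown fat the labels describe no sample, so only the authors' comparison was used and its groups are not described.

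The quantity available for each gene is the interaction of genotype and sex, written below as the log2 interaction: the log2 effect of the KO in females minus the log2 effect of the KO in males, from a limma fit by the authors. Its order is read from the name of the table, and every sign below rests on that reading. A value above 0 can come from a higher level in KO females, from a lower level in KO males, or from differences between the WT groups, and these were not told apart. The values of single libraries were not used, because the names of their columns match no label, so covariation of the 8 genes across libraries was not analysed and the spread between libraries enters only through the standard error of the fit. NDUFS4 was deleted in adipocytes, whereas the 8 genes mark another cell type of the same tissue. In such bulk RNA, fewer endothelial cells and less RNA per endothelial cell cannot be told apart.

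Each of the 8 proteins has a known place in the vessel wall. Kdr (VEGFR2) is the main signalling receptor for the growth factor VEGF-A, and Flt1 (VEGFR1) binds VEGF-A, VEGF-B and placental growth factor and acts largely as a trap that limits signalling through Kdr. Tek (Tie2) is the receptor for the angiopoietins, and Tie1 is its partner, which binds no angiopoietin by itself with high affinity and modulates Tek. Cdh5 (VE-cadherin) and Pecam1 (CD31) hold neighbouring endothelial cells together, the latter being carried by platelets and leukocytes as well. Emcn (endomucin) is a mucin of capillary and venous endothelium, and Egfl7 is a secreted protein of the endothelial matrix. In adipose tissue, adipocytes secrete VEGF-A, and the capillary network supplies oxygen and fatty acids to them.

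The bases before the transcription start of the 3 members with the highest interactions in white fat are shown because endothelial genes are typically driven by ETS family factors, which bind around the core GGAA. Capitals mark GGAA on the printed strand or TTCC, the same core on the other strand. Each run holds the 250 bases before the start on the strand of the gene, from RefSeq on build GRCm38.p6, whereas the gene positions further below are those of the deposited tables on GRCm39 and are not to be mixed with these.
Flt1, chr5:147726012-147726261, minus strand: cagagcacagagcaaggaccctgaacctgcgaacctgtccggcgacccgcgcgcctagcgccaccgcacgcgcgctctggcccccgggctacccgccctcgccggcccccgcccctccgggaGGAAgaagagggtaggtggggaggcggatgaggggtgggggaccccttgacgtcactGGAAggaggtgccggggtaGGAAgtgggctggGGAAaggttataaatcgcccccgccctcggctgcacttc
Tie1, chr4:118489850-118490099, minus strand: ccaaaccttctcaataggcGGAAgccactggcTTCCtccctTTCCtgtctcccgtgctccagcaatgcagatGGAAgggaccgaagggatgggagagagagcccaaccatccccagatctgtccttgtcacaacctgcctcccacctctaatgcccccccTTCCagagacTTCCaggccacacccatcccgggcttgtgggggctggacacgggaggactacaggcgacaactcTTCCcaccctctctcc
Emcn, chr3:137340828-137341077, plus strand: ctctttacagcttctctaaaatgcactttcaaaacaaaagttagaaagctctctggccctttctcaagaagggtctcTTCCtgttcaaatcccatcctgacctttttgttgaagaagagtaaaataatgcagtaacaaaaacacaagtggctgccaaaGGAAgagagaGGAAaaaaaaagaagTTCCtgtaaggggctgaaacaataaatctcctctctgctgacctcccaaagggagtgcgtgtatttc
The core was found 4 times before Flt1, 7 times before Tie1 and 4 times before Emcn. It is common, since 93.4% of all 32851 promoters of the table hold it, with a median of 3 matches, so a match says nothing about binding. The promoters differ more in base composition. That of Flt1 had 70.4% G and C and 23 CG pairs, a number that 13.3% of all promoters reached or exceeded. That of Tie1 had 60.4% G and C and 6 CG pairs, the median of all promoters, and that of Emcn 40.8% and 1 CG pair, a number that 18.8% of promoters did not exceed. Of the 8 members, 6 had an entry in this table. For those with lower interactions in white fat, the core was found 4 times before Kdr and 2 times before Tek. Before the starts listed for Egfl7 it was found 5, 3 and 1 times.

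All 8 genes were expressed in both depots, and the order of their levels was much the same. Mean log2 expression in the authors' deposited table for white fat was 8.12 for Kdr, 7.61 for Flt1, 7.42 for Pecam1, 6.98 for Cdh5, 6.73 for Egfl7, 5.16 for Tek, 4.88 for Emcn and 4.22 for Tie1. How these values were normalised is unknown. They were taken as not yet scaled by mRNA length, so the levels of the 8 genes are compared with each other per kilobase of exon. If they were already scaled, the order as deposited would apply instead. On that scale Kdr (4.94), Cdh5 (4.91), Egfl7 (4.89) and Pecam1 (4.78) lay close together in white fat, Flt1 followed at 3.86, and Tek (2.93), Emcn (2.45) and Tie1 (1.92) were lowest. The correction moved Flt1 from the second to the fifth place, since the union of its annotated exons spans 13504 bases, against 9030 for Kdr and 3581 for Egfl7. Such a union can be longer than any single mRNA of the gene. The gap from Kdr to Tie1 was 3.02 log2 per kilobase, and how far neighbours in this order differ beyond the spread between libraries was not analysed. Among all genes of the white fat table the per-kilobase level of the members ranged from percentile 49.7 for Tie1 to 90.3 for Kdr.

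In brown fat the per-kilobase order again began with Kdr (5.54) and ended with Tie1 (1.76), a gap of 3.78 log2. Egfl7 came second at 5.35, before Pecam1 at 4.60, Cdh5 at 4.48 and Flt1 at 4.42, while Emcn at 2.68 and Tek at 2.64 stood side by side. Mean log2 expression in the authors' deposited table for brown fat was 8.72 for Kdr, 8.18 for Flt1, 7.24 for Pecam1, 7.19 for Egfl7, 6.55 for Cdh5, 5.11 for Emcn, 4.88 for Tek and 4.06 for Tie1. The receptor genes Kdr and Flt1, the mucin gene Emcn and the matrix gene Egfl7 thus had higher values in the brown fat table, and Cdh5, Pecam1, Tek and Tie1 lower ones. Whether the tables share a normalisation is unknown, so these are values set side by side and not a test between depots.

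**Figure D1:**
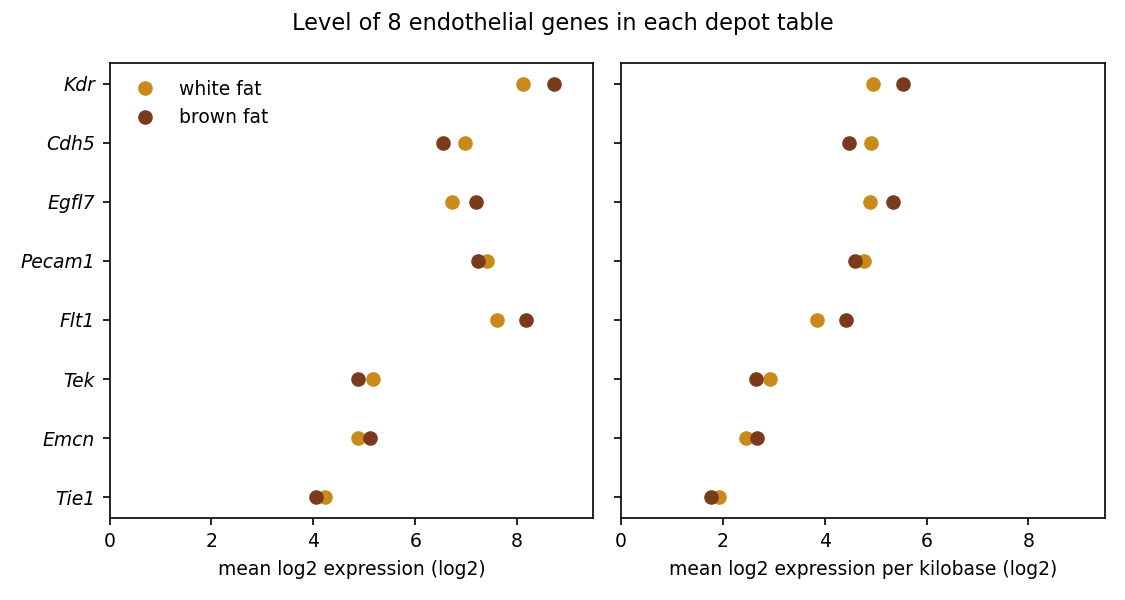
Mean log2 expression of the 8 endothelial genes in white and brown fat, as deposited (left) and per kilobase of exon (right); each point is a mean over all libraries of a table, with no spread. Kdr stands at the top (4.94 and 5.54 per kilobase) and Tie1 at the bottom (1.92 and 1.76) in both depots.

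As a check of the tissue, the adipocyte hormone gene Adipoq stood at percentile 99.9 of mean expression in white fat and 99.6 in brown fat, not corrected for length. The targeted gene, Ndufs4, was listed in the authors' deposited table for white fat with 0.89 ± 0.38 (± is the standard error throughout; adjusted p = 0.169, limma) and in that for brown fat with -0.10 ± 0.14 (adjusted p = 0.946), which compares sexes and does not check the genotype labels. The depth of the libraries was not analysed here. Where nothing says that libraries of a group came from separate animals, the p-values measure only the spread between these libraries.

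Did loss of NDUFS4 in adipocytes act on the endothelial genes of white fat differently in females and males? In white fat 7 of the 8 genes had an interaction above 0 and Pecam1 alone lay below it, but none of the 8 passed an adjusted p of 0.05. The members' median was 0.61, beside 0.13 over all genes of the table, of which 55.9% lay above 0; relative to that all-gene median, 7 of the 8 were still above and the members' median was 0.48. At an adjusted p of 0.05, 4.75% of all genes were called in white fat (1.06% above 0 and 3.69% below), and 0 of the 8 members. At an unadjusted p of 0.05, 4 of the 8 members passed, all above 0, where 24.5% of all genes passed in either direction and 11.9% above 0.

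The receptor genes of the VEGF family are given first. Flt1 (ENSMUSG00000029648.14, chromosome 5, 147498414 to 147662821, minus strand, GRCm39) had the highest interaction of the 8, 1.35 ± 0.39 in the authors' deposited table (p = 0.00430, adjusted p = 0.0619, limma). In linear terms the ratio of KO to WT in females was 2.55 times that in males, with a 95% interval of 1.42 to 4.59. Flt1 ranked 1164th by p among 16738 genes and missed the threshold by the smallest margin of the members. Kdr (ENSMUSG00000062960.11, chromosome 5, 76093487 to 76139118, minus strand), its partner receptor, was at 0.39 ± 0.27 in the authors' deposited table (adjusted p = 0.398), with a 95% interval of -0.20 to 0.98. Flt1 and Kdr share the libraries of 1 fit, and the difference between them was not tested.

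The angiopoietin receptor pair and the surface mucin came next. Tie1 (ENSMUSG00000033191.15, chromosome 4, 118328388 to 118347258, minus strand) was at 1.20 ± 0.45 in the authors' deposited table (p = 0.0184, adjusted p = 0.122), a ratio of 2.30 with an interval of 1.18 to 4.47. Tek (ENSMUSG00000006386.16, chromosome 4, 94627526 to 94763213, plus strand), the signalling partner of Tie1, was at 0.57 ± 0.37 in the authors' deposited table (p = 0.150, adjusted p = 0.362). Its interval, -0.23 to 1.37, holds both 0 and the value of Tie1. The mucin gene Emcn (ENSMUSG00000054690.18, chromosome 3, 137046828 to 137137946, plus strand) was at 1.18 ± 0.40 in the authors' deposited table (p = 0.0109, adjusted p = 0.0947), a ratio of 2.27 with an interval of 1.25 to 4.12. Emcn and Flt1 are the members that pass at an adjusted p of 0.10, where 12.1% of all genes pass, 4.67% above 0 and 7.44% below.

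The junction genes lay on opposite sides of 0. Cdh5 (ENSMUSG00000031871.10, chromosome 8, 104828257 to 104871143, plus strand) was at 0.64 ± 0.28 in the authors' deposited table (p = 0.0395, adjusted p = 0.180), with an interval of 0.04 to 1.25. Pecam1 (ENSMUSG00000020717.20, chromosome 11, 106545043 to 106641454, minus strand) was at -0.36 ± 0.29 in the authors' deposited table (p = 0.240, adjusted p = 0.464), with an interval of -0.98 to 0.27. The intervals of these junction genes overlap, and the difference between them was not tested. Egfl7 (ENSMUSG00000026921.21, chromosome 2, 26470026 to 26483132, plus strand), the matrix gene, was nearest to 0, at 0.29 ± 0.39 in the authors' deposited table (adjusted p = 0.673). From Pecam1 to Flt1 the members thus spanned 1.71 log2.

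The precision of the fit set what could be called. The standard errors of the 8 genes in white fat ran from 0.27 for Kdr to 0.45 for Tie1, all below the median of 0.51 over all genes. To reach the threshold at its own standard error, Kdr would have needed an interaction of 1.03, Cdh5 1.05, Flt1 1.47, Emcn 1.495 and Tie1 1.67. Estimates below these sizes could not be called at these standard errors, which sets no limit on the true differences.

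**Figure D2:**
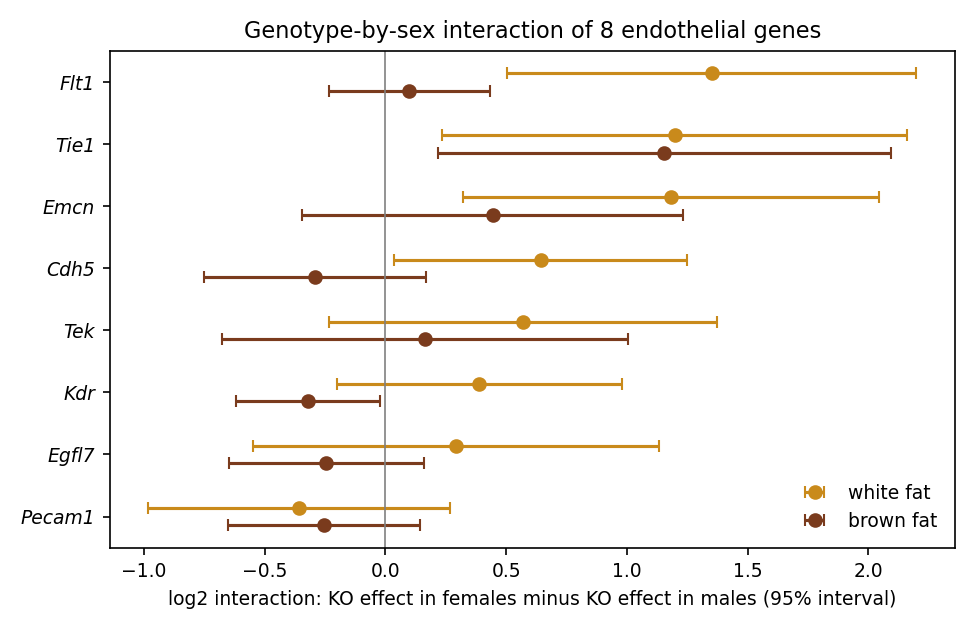
Log2 interaction (KO effect in females minus KO effect in males) of the 8 genes, with 95% intervals from the authors' limma fit, in white and brown fat. In white fat the intervals of Flt1, Tie1, Emcn and Cdh5 lie above 0, and in brown fat that of Tie1 lies above 0 and that of Kdr below 0, while no gene passes an adjusted p of 0.05.

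In brown fat, the thermogenic depot, 4 of the 8 genes lay above 0 and 4 below, with a median of -0.07 beside 0.01 over all genes. None of the 8 was called by limma at an adjusted p of 0.05, where 0.013% of all genes were. At an unadjusted p, 2 members passed, Tie1 above 0 and Kdr below, against 6.51% of all genes (3.33% above and 3.18% below). Tie1 was at 1.16 ± 0.46 in the authors' deposited table (p = 0.0174, adjusted p = 0.690), a ratio of 2.23 with an interval of 1.16 to 4.27. Kdr was at -0.32 ± 0.15 in the authors' deposited table (p = 0.0368, adjusted p = 0.745), a ratio of 0.80 with an interval of 0.65 to 0.99.

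None of the other members passed an unadjusted p in brown fat. Flt1, the highest in white fat, was at 0.10 ± 0.16 in the authors' deposited table for brown fat (adjusted p = 0.948), and Tek was at 0.16 ± 0.41 (adjusted p = 0.980). Emcn was at 0.44 ± 0.39 in the authors' deposited table (adjusted p = 0.897). The authors' deposited table had Cdh5 at -0.29 ± 0.23, Pecam1 at -0.26 ± 0.20 and Egfl7 at -0.25 ± 0.20 (adjusted p of 0.879, 0.878 and 0.879). For the abundant genes Kdr and Flt1 the fit was precise, with standard errors at percentiles 1.92 and 3.11 of all genes of the table. The 95% interval of Flt1 was -0.23 to 0.43 in brown fat and 0.50 to 2.20 in white fat, where Flt1 was the highest of the 8. The difference between the depots did not pass in the depot test given below (adjusted p = 0.172).

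Of the 8 members, 5 had the same sign in both depots, against 54.6% of the 14502 genes in both tables. These were Flt1, Tek, Tie1 and Emcn above 0 and Pecam1 below it, while Cdh5, Kdr and Egfl7 lay above 0 in white fat and below it in brown fat. The difference of the interactions, white minus brown, was then tested for each gene with p adjusted over all 14502 genes. None of the 8 passed an adjusted p of 0.05 in this test, where 0.248% of all genes did (0.0896% with the higher value in white fat), nor an adjusted p of 0.10, where 1.62% did (0.696%). At an unadjusted p, 3 members passed, all with the higher value in white fat, against 15.7% of all genes in either direction and 9.73% with the higher value in white fat.

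These 3 were Flt1, Cdh5 and Kdr. Flt1 differed by 1.25 ± 0.43 between the depots (95% interval 0.36 to 2.15, adjusted p = 0.172), Cdh5 by 0.94 ± 0.36 (0.20 to 1.67, adjusted p = 0.198) and Kdr by 0.71 ± 0.31 (0.06 to 1.36, adjusted p = 0.271), with the depot test and Benjamini-Hochberg adjustment. Tie1 had nearly the same value in both, with a difference of 0.04 ± 0.64, but the interval of -1.26 to 1.34 is too wide to call the depots alike. For Pecam1 the difference was -0.10 ± 0.35 (interval -0.82 to 0.62). Emcn at 0.74, Egfl7 at 0.54 and Tek at 0.40 were higher in white fat, with intervals that hold 0. The test takes the tables as independent, and the sources used here do not say whether the same animals gave both depots.

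**Figure D3:**
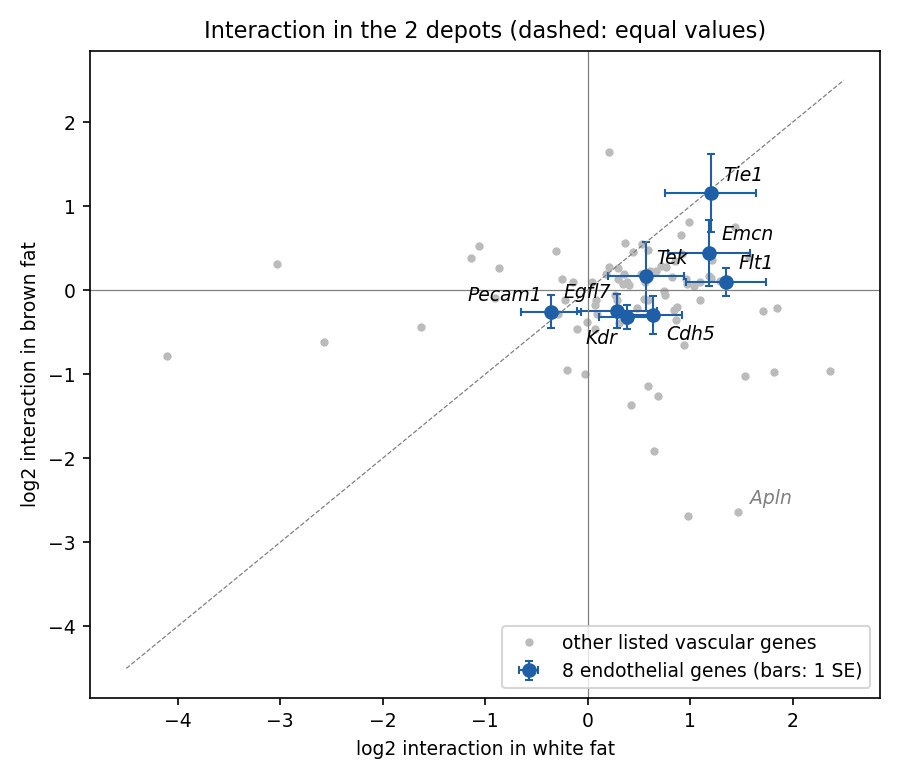
Log2 interaction in white fat (horizontal) against brown fat (vertical) for the 8 genes in blue, with bars of 1 standard error, and for the other listed vascular genes in grey; the dashed line marks equal values. Tie1 sits on the line at 1.20 and 1.16, while Flt1, Cdh5 and Kdr lie below it.

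The ligands and co-receptors that work with the members were read from lists of vascular genes. In the VEGF family list, 7 of 10 genes lay above 0 in white fat (median 0.72), and 1 passed. This was Nrp1 (neuropilin-1), the co-receptor that presents VEGF-A to Kdr, at 1.09 ± 0.25 in the authors' deposited table (p = 0.000601, adjusted p = 0.0357), whereas neither Kdr nor Flt1, which stand in the same list, passed. In brown fat Nrp1 was at -0.11 ± 0.15 in the authors' deposited table (adjusted p = 0.942), and the difference between the depots, 1.20 ± 0.29, had an adjusted p of 0.0663. Vegfa, which adipocytes secrete, was at 1.30 ± 0.45 in the authors' deposited table for white fat (p = 0.0131, adjusted p = 0.104). The authors' deposited table had Vegfb at 0.92 ± 0.30 (adjusted p = 0.0845) and Pgf, the placental growth factor that binds Flt1, at -1.87 ± 1.02 (adjusted p = 0.273). Pgf had a mean log2 expression of 1.73, not corrected for length. In brown fat, Vegfa was at 0.12 ± 0.17 and Vegfb at 0.44 ± 0.17 in the authors' deposited table (adjusted p of 0.948 and 0.690), and 0 of 9 listed genes passed.

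All 6 measured genes of the angiopoietin and Tie list, Tek and Tie1 among them, were above 0 in white fat (median 0.87), and 0 passed. Ptprb, the vascular phosphatase that acts on Tek and Cdh5, was at 1.09 ± 0.34 in the authors' deposited table (adjusted p = 0.0740). The ligand genes Angpt1 and Angpt2 had values of 0.59 ± 0.41 and 0.98 ± 0.75 in the authors' deposited table (adjusted p of 0.393 and 0.435). In brown fat 4 of 6 were above 0 and 0 passed. There Angpt2, the ligand that can block Tek, was at -2.69 ± 1.07 in the authors' deposited table (p = 0.0171, adjusted p = 0.690), at a mean log2 expression of only 0.18, so the size of this value is uncertain.

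Of the junction and adhesion list, which holds Cdh5 and Pecam1, 9 of 12 genes lay above 0 in white fat (median 0.65) and 0 passed. The catenin gene Ctnnd1 (p120), whose protein stabilises Cdh5 at the membrane, was at 1.43 ± 0.42 and Tjp1 (ZO-1) at 1.19 ± 0.35 in the authors' deposited table (adjusted p of 0.0622 and 0.0628). Among 18 other pan-endothelial markers 16 were above 0 (median 0.54) and 0 passed, led by Eng (endoglin), a co-receptor for TGF-beta ligands, at 1.57 ± 0.47 and Podxl at 1.21 ± 0.44 in the authors' deposited table (adjusted p of 0.0638 and 0.116). Of the Notch and arterial genes 10 of 13 were above 0 (median 0.68), and 0 passed. Hey1, a Notch target, came closest at 1.71 ± 0.46 in the authors' deposited table (adjusted p = 0.0509), followed by Sema3g at 0.82 ± 0.36 (adjusted p = 0.178). Of 6 venous genes 5 were above 0 (median 0.44) and 0 passed, with Ephb4 at 1.85 ± 0.77 and Plvap at -1.14 ± 0.53 in the authors' deposited table (adjusted p of 0.158 and 0.205).

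Endothelial transcription factors were split in white fat. Of 14 genes 8 were above 0 and 6 below (median 0.15), and 9 passed an unadjusted p, against 24.5% of all genes (11.9% above 0 and 12.6% below). Most of the 9 lay below 0: Lmo2, Ets1, Hhex, Foxf1, Fli1 and Klf2, with only Gata2, Klf4 and Mecom above it. The 1 that passed the adjusted p was Lmo2, a partner of the Tal1 complex in endothelial and blood cells, whose interaction was -1.63 ± 0.43 in the authors' deposited table (adjusted p = 0.0479). Ets1, an ETS factor that lymphocytes also express strongly, was at -2.57 ± 0.71 in the authors' deposited table (adjusted p = 0.0528). Hhex was at -3.03 ± 0.87 and Foxf1, with a mean log2 expression of only -0.15, at -4.08 ± 1.20 in the authors' deposited table (adjusted p of 0.0595 and 0.0628). Among those above 0, Gata2 was at 1.82 ± 0.54 and Klf4 at 0.99 ± 0.32 in the authors' deposited table (adjusted p of 0.0633 and 0.0785). In the list of capillary and lipid-uptake genes, of which adipocytes also express Cd36 and Fabp4, 14 of 16 were above 0 (median 0.40), and Gpihbp1, which carries lipoprotein lipase on capillaries, was at 0.29 ± 0.32 in the authors' deposited table. The single gene of this list past the adjusted p, Prox1, is the master regulator of lymphatic endothelium and stands in the lymphatic list too.

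Counted once each, 88 measured genes of the vascular lists other than the members gave 69 above 0 and 19 below in white fat. Their median was 0.54, where 55.9% of all genes lay above 0 with a median of 0.13. Adipocytes also express some of them, such as Cd36, Fabp4 and Vegfa, and mature adipocyte genes lay mostly above 0 as well (9 of 10, median 0.41). Of the 88, 3 (3.41%) passed an adjusted p of 0.05, against 4.75% of all genes, Nrp1 above 0 and Lmo2 and Prox1 below. In brown fat 43 of 83 were above 0 (median 0.06), beside 51.0% of all genes (median 0.01). There 8 passed an unadjusted p and 0 the adjusted p in limma, against 6.51% and 0.013% of all genes. The lists were chosen with earlier results of these data known, and their counts are a description beside those of all genes.

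Lists of markers of other cells were read in the white fat table too. All 10 T cell genes and all 10 B cell genes lay below 0, with medians of -8.00 and -8.61. Of these, 9 and 6 genes passed the adjusted p, against 3.69% of all genes that passed below 0. Zap70, a kinase of T cell receptor signalling, was at -8.90 ± 1.65 in the authors' deposited table (adjusted p = 0.0355) and the B cell homing receptor gene Cxcr5 at -8.28 ± 1.75 (adjusted p = 0.0357). The mean log2 expression of these lists had medians of 2.20 and 1.59, from 0.46 to 3.39 and from -0.62 to 4.44. Genes of high endothelial venules, the vessels through which lymphocytes enter lymph nodes, had 5 of 7 below 0 (median -3.50). Of these, Gcnt1, a glycosyltransferase that lymphocytes also express, passed with -3.50 ± 0.77 in the authors' deposited table (adjusted p = 0.0357), and Ccl21a, a chemokine of lymphatic vessels and lymph node stroma, was at -10.17 ± 2.81 (adjusted p = 0.0544). In the lymphatic list 5 of 9 lay below 0 (median -0.25), and Prox1 passed with -4.10 ± 0.82 in the authors' deposited table (adjusted p = 0.0357), while Lyve1 was at -0.82 ± 0.42 (adjusted p = 0.242). Among those above 0, Gja1 was at 1.31 ± 0.54 (adjusted p = 0.158). The part of these cells in the values of the endothelial genes was not tested.

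The cells that wrap vessels and those around them lay mostly above 0, as did the 8 genes. Pericyte and smooth muscle genes had 12 of 13 above 0 in white fat (median 0.64) and 0 past the adjusted p, with the contractile gene Cnn1 at 2.57 ± 1.06 and the channel subunit Abcc9 at 0.60 ± 0.28 in the authors' deposited table (adjusted p of 0.156 and 0.201). Mature adipocyte genes had 9 of 10 above 0 (median 0.41) and fibroblast genes 7 of 10 (median 0.39), with 0 passing in either. Skeletal muscle (10 of 10 above 0, median 3.70) and thermogenic adipocyte genes (10 of 10, median 3.25) had medians above 0 too. So had Schwann cell (5 of 7, median 1.34) and mammary epithelial genes (7 of 7, median 1.74). Standard errors in these lists were large, with medians of 2.72, 2.45, 1.03 and 2.02 in the same order, beside 0.51 over all genes. An unadjusted p was passed by 2, 1, 2 and 0 of their genes, against 24.5% of all genes. Kcnk3 passed the adjusted p above 0, and the Schwann list's Mbp and Cnp passed it below 0. Macrophage genes lay mostly below 0 (9 of 10, median -0.33), with 0 past an unadjusted p. In brown fat only 4 of the T cell and 5 of the B cell genes were in the table, with medians of 0.18 and -0.32, and 0 genes of any list passed the adjusted p. There skeletal muscle genes (9 of 10, median -3.30), fibroblast genes (9 of 10, median -0.81) and macrophage genes (7 of 10, median -0.83) lay mostly below 0. In these lists 4, 5 and 4 genes passed an unadjusted p, against 6.51% of all genes. The part of these cell types in the endothelial values was likewise not tested.

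**Figure D4:**
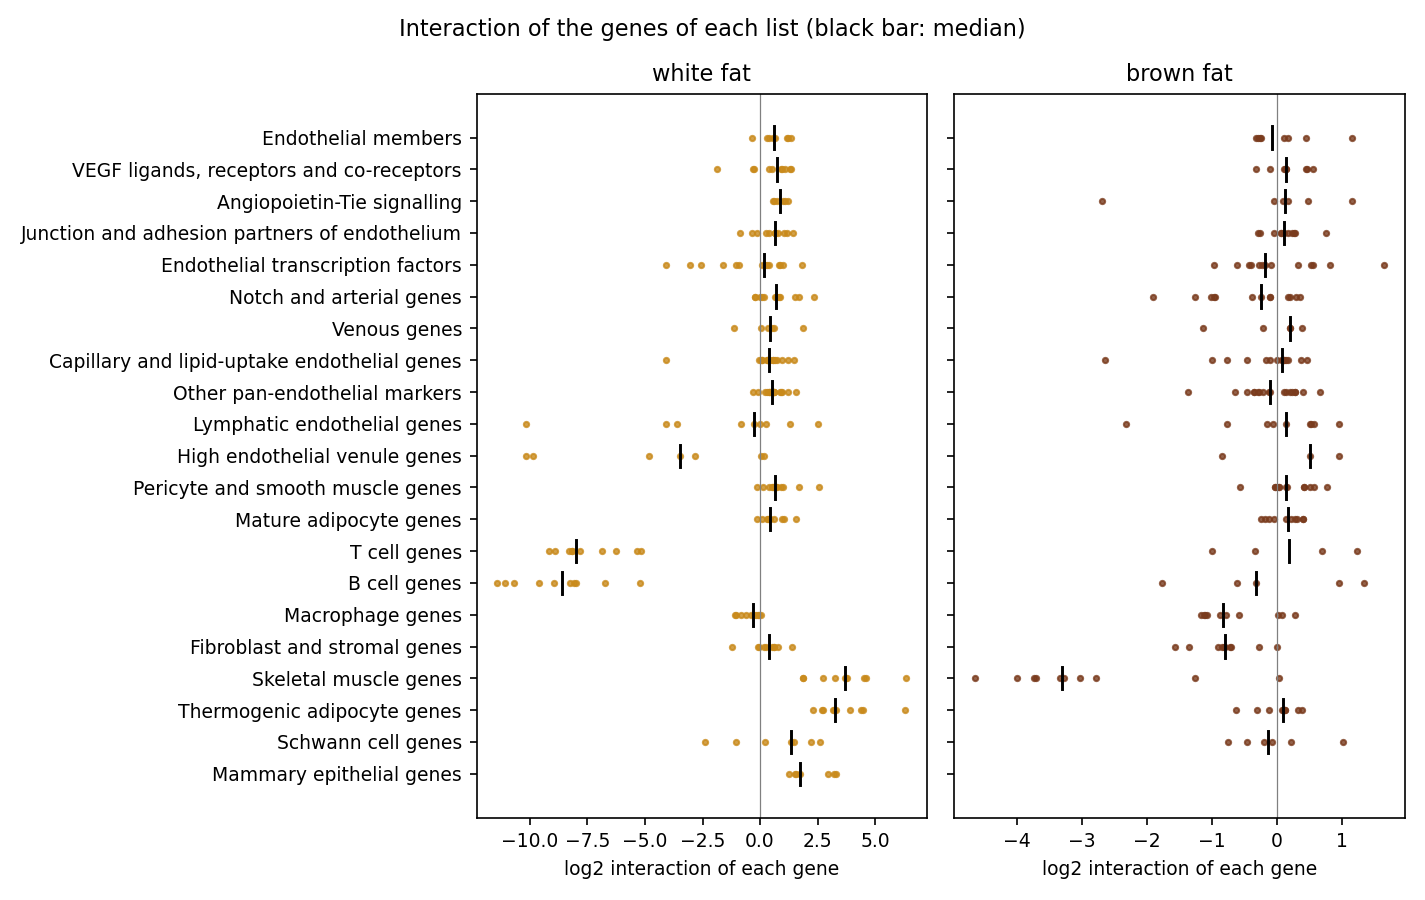
Log2 interaction of every measured gene of each list in white fat (left) and brown fat (right, on a narrower scale); black bars are medians. In white fat the 8 blood vessel lists centre between 0.15 and 0.87, while the T and B cell lists sit at -8.00 and -8.61.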

How the data were processed

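RNA libraries of white fat were described by the labels, and the genes by the authors' tables. Per the submitters' processing notes, featureCounts, limma and the mouse build GRCm39 were used. Versions, aligner, annotation, strand setting and normalisation: not given in the sources used here. Log2 values deposited by the authors are limma's fitted interaction and the mean log2 expression over libraries. The t-statistic is a score deposited by the authors, and the p-values and adjusted p-values are those of the authors' fit; the adjusted ones were checked to equal Benjamini-Hochberg over each table. Library columns match no label, so 48 of them, 12 in each of 4 tables, were used in no step, and the depth per library is unknown.

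Standard errors are the log2 interaction over t, and 95% intervals use the degrees of freedom that t and p imply, 13.4 in white and 33.9 in brown fat. Depots were compared by the difference of interactions over its standard error (both errors squared, summed, and the root taken), two-sided, on Welch-Satterthwaite degrees of freedom, with Benjamini-Hochberg adjustment. Level per kilobase is mean log2 expression minus log2 of the exon length in kilobases (union of exons, GENCODE M21, which has a length for 99.8% and 99.7% of genes; no coordinate of it was used). The size needed to pass is the t of the largest called p times the standard error. The code of these steps was run on simulated tables. Those were drawn independently for each depot, so the independence of the depots was not checked. Tables were handled with pandas 2.3.3 and numpy 2.4.6 in Python 3.11.15, tests run with scipy 1.17.1, and figures drawn with matplotlib 3.10.9.

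The members and gene lists were chosen with earlier results of these data known; the rule for the members is their symbol and uses no measured value. Named were all 8 members, the ligands that pair with them, and in each list genes past the adjusted p or else the smallest p, some of which the text leaves out. Gpihbp1, Ets1, Fli1, Hhex, Foxf1, Klf2, Mecom, Gata2, Klf4, Gja1, Lyve1, Ccl21a, Aplnr and Adipoq were named after their values were seen, and so was the core searched in promoters. Alternatives were a threshold of 0.10, unadjusted p, Holm adjustment, a minimum mean log2 expression of 3.32 (log2 of 10), a table cut to protein-coding genes, values relative to the median interaction, and fewer degrees of freedom for the depot test.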

Additional observations from a re-analysis of the deposited data

Results flagged for a closer look

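Apln, the gene of the peptide apelin, stands in the capillary and lipid-uptake list. Its interactions were opposite in the depots, and the test of that difference passed: 4.10 ± 0.76 (white minus brown, 95% interval 2.57 to 5.64, adjusted p = 0.0106 with the depot test). Which cells of the tissue gave these values was not tested. The authors' deposited table gave 1.46 ± 0.45 in white fat (adjusted p = 0.0732) and -2.64 ± 0.61 in brown fat (adjusted p = 0.151), so Apln passed in neither depot by itself. With the smaller degrees of freedom of the white fat table for every gene, the adjusted p of the difference was 0.203, and with each table centred on its median it was 0.00767. The receptor gene Aplnr was at 0.97 ± 0.73 in white fat and 0.08 ± 1.05 in brown fat in the authors' deposited table. None of the 8 endothelial genes had a difference between depots past the adjusted p.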

How the results depend on the processing

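The count of endothelial genes called stayed at 0 in white fat with the expression filter, with protein-coding genes only, with centring and with Holm adjustment. It was 2 (Flt1 and Emcn) at a threshold of 0.10 and 4 at an unadjusted p. In brown fat it was 2 at an unadjusted p and 0 in the other settings, and for the difference between depots it was 0 in every setting run with an adjusted p and 3 (Flt1, Cdh5 and Kdr) at an unadjusted p. With centring, Cdh5 in white fat and Kdr in the depot difference no longer passed the unadjusted p. The adjusted p of Flt1 in white fat ran from 0.0572 with the expression filter over 0.0582 with protein-coding genes to 0.0823 relative to the median interaction of 0.13, and was 1 with Holm adjustment. Among the 8 genes the direction turned once: the difference of Tie1 between depots was -0.07 (adjusted p = 0.970) with each table centred on its median. Per kilobase the members' median percentile of expression was 84.2 in place of 88.8 in white fat and 87.3 in place of 90.1 in brown fat. Of the other vascular genes, 5 passed in white fat relative to the median interaction in place of 3, with Ets1 (adjusted p = 0.0429) and Fli1 (adjusted p = 0.0461) added below 0, and 2 passed with the expression filter, which leaves out Prox1. No paired analysis was possible because the columns of library values carry no replicate number, and for the same reason no library was left out in turn; every value rests on the authors' fit.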
